A study of Mus musculus with 46 samples.

Results

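The genes described here encode the subunits of the mitochondrial respiratory chain and of ATP synthase, complexes I to V, measured by RNA sequencing in bone marrow-derived macrophages (BMDM) of mice. They were taken by symbol: mt-encoded Nd, Co, Cytb and Atp genes, the numbered Nduf subunits of complex I, Sdha to Sdhd of complex II, the Uqcr genes of complex III, Cox4 to Cox8 of complex IV, and the Atp5 genes of ATP synthase. In a table of 24671 genes, 100 rows carried such a symbol. The 93 kept left out 3 pseudogenes with the suffix -ps, Cox6a2, and 3 rows with a mean level under 1 CPM (counts scaled to library size) over all libraries. Of the 93, 13 are encoded by mitochondrial DNA (7 in complex I, 1 in III, 3 in IV and 2 in V) and 80 by nuclear DNA (38 in complex I, 4 in II, 8 in III, 13 in IV and 17 in V). All 93 passed the filter on low counts, so each was tested. The lowest members above the CPM floor were Cox4i2 (1.63) and Cox6c2 (1.74), and Cox7a1 (0.666) and Cox6b2 (0.297) lay under it. The symbols also take in Ndufb4c and Cox6c2, which are annotated as processed pseudogenes, Atp5s, which is not a structural subunit, Cox7a2l, a factor that joins complexes into supercomplexes, and Ndufa4, which is now placed in complex IV and is counted with complex I here. Ndufa4l2, an isoform of Ndufa4, is likewise counted with complex I by its symbol alone.

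The cells were macrophages grown from bone marrow, and 46 libraries of polyadenylated RNA fall into 9 groups. Vehicle has 6 libraries and each of 8 treatments has 5. The single compounds are 27-hydroxycholesterol (27HC), an oxysterol that binds the liver X receptors (LXR) and the estrogen receptors (ER), the synthetic LXR agonist GW3965, the LXR antagonist GSK2033, estradiol (E2), which activates ER, and ICI, the name of an ER antagonist also called fulvestrant. Combined treatments are GSK2033 plus 27HC, ICI plus 27HC, and GW3965 plus a second compound that is named as 27HC in the titles and as ICI in the source and treatment labels, and so is left unnamed. Mouse strain, age, doses and exposure times are not given in the sources used here. The labels do not tell if the libraries of a group stem from different mice or wells. What the p-values weigh is therefore library-to-library spread, possibly of technical origin. The comparisons ask how ligands of LXR and ER alter macrophage transcription.

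Complexes I and II take electrons from NADH and succinate, complex III passes them to cytochrome c, and complex IV hands them to oxygen. Complexes I, III and IV pump protons, and ATP synthase (complex V) uses the gradient to make ATP. Complex II is built from nuclear gene products alone, whereas the other 4 need subunits from both genomes: the mt-encoded ones form the membrane core, are transcribed as long precursors from both strands of the circular mitochondrial DNA, and are translated inside the organelle, while nuclear subunits are made in the cytosol and imported. In macrophages the chain is known for its part in the change of metabolism that comes with activation.

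Total estimated counts ran from 19354093 to 30921038 per library. The 11 macrophage markers were all present, and their summed level (TMM-scaled CPM, that is CPM after the TMM correction for library composition) was 25074 to 27324 with Vehicle, 26102 to 27672 with E2, and lower in each other group, down to 11944 to 12796 with GW3965 plus the second compound. The members of that list did not all move alike. With ICI, Cd68 was higher than with Vehicle (log2 difference 0.36), while Lyz2 (-0.88), Cd14 (-1.11) and Itgam (-0.51) were lower. Markers of neutrophils and of dendritic cells (at most 3.21 for each list) and of erythroid cells (at most 0.377) were close to 0 in every library, and lymphocyte markers summed to 6.56 to 28.8. The 9 stromal markers summed to 4281 to 5054 with Vehicle and 2724 to 3304 with GW3965 plus the second compound. The part of these shifts in the results below was not tested. In cultures sequenced in bulk, fewer cells of a type and less RNA per cell cannot be told apart.

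Of the 13 mt-encoded genes, 5 have a near-identical row elsewhere in the table, and their sequences are shown because they decide how the levels of these genes can be read. The copies lie next to each other on the minus strand of chromosome 1 (GRCm38, chr1:24612775-24616197) and are annotated as unprocessed pseudogenes: Gm28438 copies mt-Nd3, Gm28437 mt-Co3, Gm10925 mt-Atp6, Gm28661 mt-Co2 and Gm29216 the end of mt-Co1. Gm28661 matches mt-Co2 (chrM:7013-7696, plus strand) at 681 of 681 aligned bases, and the first 60 bases of the gene and of the copy are the same.
mt-Co2: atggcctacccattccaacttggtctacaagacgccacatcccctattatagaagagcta
Gm28661: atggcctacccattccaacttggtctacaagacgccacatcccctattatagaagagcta
For mt-Nd3 (chrM:9459-9806, plus strand), 344 of 345 aligned bases match. The single difference, T3C, counted from 1 at the start of the gene with the mt-Nd3 base first, is in capitals.
mt-Nd3: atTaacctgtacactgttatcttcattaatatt
Gm28438: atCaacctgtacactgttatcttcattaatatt
Gm29216 aligns with 492 bases of mt-Co1 (chrM:5328-6872, plus strand) and differs at 6 of them: T1056A, C1057T, A1059G, A1060G, C1062A and A1066T. Positions 1054 to 1096 of mt-Co1 are shown with the differing bases in capitals.
mt-Co1: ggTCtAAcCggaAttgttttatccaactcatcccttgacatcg
Gm29216: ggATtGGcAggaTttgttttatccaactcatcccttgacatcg
The copies of mt-Atp6 (678 of 678 bases) and mt-Co3 (783 of 783) are exact.

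A read of 100 nt from mt-Co2 cannot be placed: 99.5% of all 100-base windows of the gene occur in Gm28661. The deposited counts were divided between such rows. Gm28661 had a mean level of 177% of that of mt-Co2, and Gm28438 had 390% of that of mt-Nd3, against 60.9% for the mt-Atp6 copy, 27.3% for mt-Co1 and 13.2% for mt-Co3. How the counts fell differed between libraries of 1 group. With ICI plus 27HC, mt-Co2 stood at 636, 351, 1258, 556 and 583 CPM and Gm28661 at 1363, 1573, 777, 1559 and 1721, while their sum stayed at 1999, 1924, 2035, 2115 and 2304. The library with the highest mt-Co2 level had the lowest Gm28661 level. In 9 of 9 groups the levels of member and copy were negatively correlated across libraries, for mt-Co2 and for mt-Nd3. The median coefficient of variation within a group was 26.2% for mt-Co2 and 6.45% for the sum with its copy, and it was 40.2% for mt-Nd3 and 7.03% for that sum. For the other 3 genes the sums varied by 6.46% to 8.51%, against 5.997% (mt-Nd6) to 12.04% (mt-Atp8) for the 8 genes with no copy. Results for the 5 genes are therefore given as deposited and with the copy's counts added, an alternative chosen after seeing the data.

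**Figure D1:**
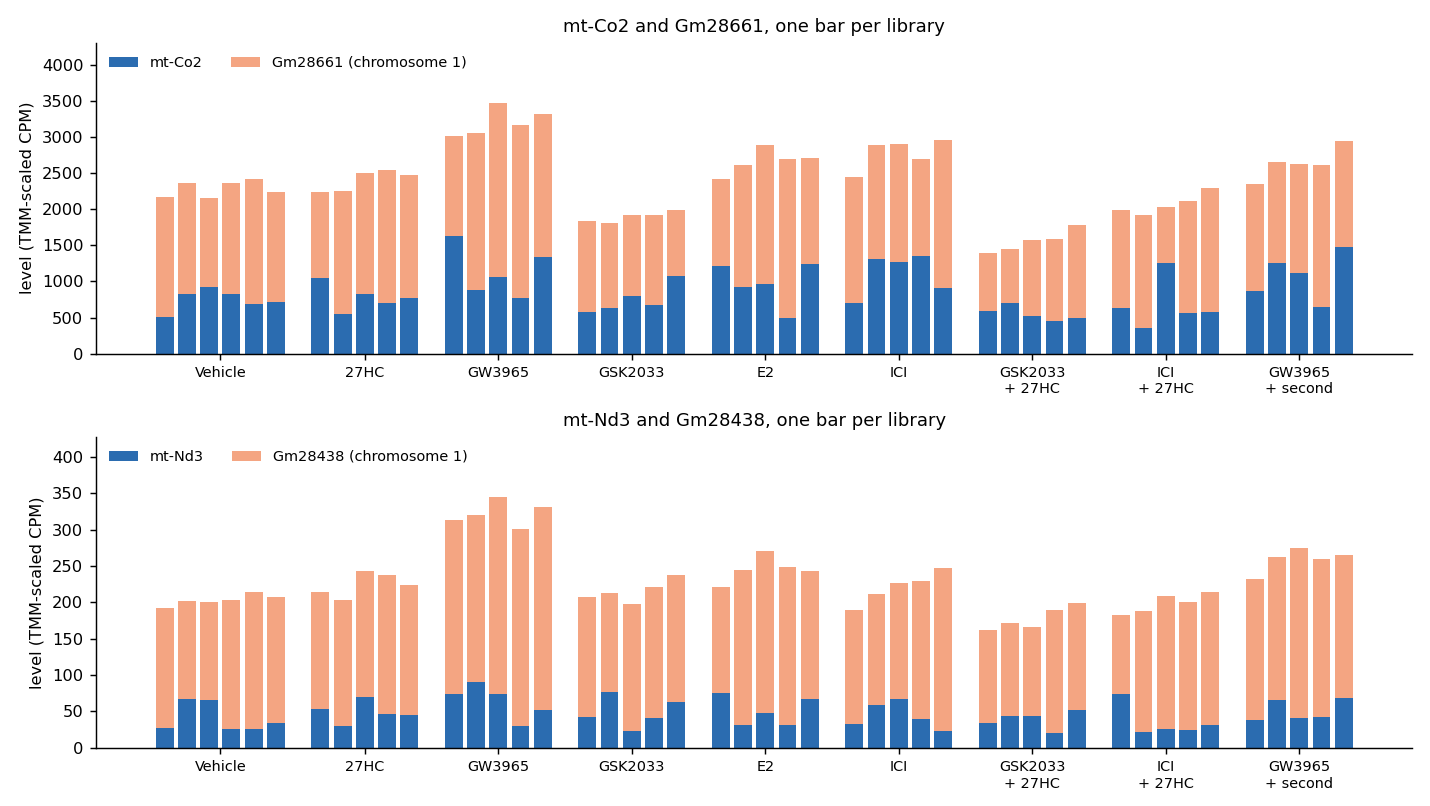
Levels (TMM-scaled CPM) of mt-Co2 with its chromosome 1 copy Gm28661 and of mt-Nd3 with Gm28438, as stacked bars for each of the 46 libraries in group order. The boundary between member and copy moves from library to library, while the height of the stack stays close within a group.

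Per kilobase of transcript, 10 of the 13 mt-encoded genes had a higher mean level with Vehicle than any nuclear member. The exceptions were mt-Nd4l (309 CPM per kb), mt-Nd5 (279) and, as deposited, mt-Nd3 (117, or 584 with its copy added). With Vehicle, mt-Co1, the catalytic core of complex IV, had the highest level of the 93 at 4249.9 CPM per kb, and mt-Nd1 led the mt-encoded complex I genes at 1367. Among nuclear members, Atp5b, the catalytic beta subunit of ATP synthase, stood at 381 CPM per kb, Cox4i1 at 354, Ndufb8 at 208, Sdhc at 202 and Uqcrh at 178, each the highest of its complex with Vehicle. The low-level isoforms Ndufa4l2 (4.77 CPM per kb) and Cox4i2 (1.92) lay far below, as did Atp5s (6.16).

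Summed over the 13 genes, mt-encoded subunits took 1.60% ± 0.103 (SD, n = 6) of all counts with Vehicle. Such a sum weighs each gene by its level. Over all libraries the highest means were those of mt-Co1 (6954 CPM) and mt-Co3 (2697 CPM), both genes with a copy. The share was 2.17% ± 0.118 with GW3965, 1.98% ± 0.139 with ICI, 1.90% ± 0.0981 with 27HC and 1.84% ± 0.0991 with E2 (SD, n = 5 each), and no library of these groups was as low as the highest Vehicle library (1.68%). Neighbours in that order overlapped: GW3965 (2.03% to 2.28%) with ICI (1.75% to 2.09%), and ICI with 27HC (1.80% to 2.05%) and E2 (1.74% to 1.95%). The shares were not tested, and overlap of ranges does not show that these groups are equal. Taken gene by gene, the median log2 difference from Vehicle over the 13 was 0.32 with ICI and 0.33 with 27HC. The share was 1.80% ± 0.220 with GW3965 plus the second compound and 1.66% ± 0.118 with ICI plus 27HC, and both ranges overlapped that of Vehicle. It was 1.37% ± 0.0963 with GSK2033 and 1.34% ± 0.114 with GSK2033 plus 27HC, the 2 lowest groups, which overlapped each other and reached the lowest Vehicle library (1.43%).

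The 80 nuclear subunits together moved far less. Their sum was 0.715% ± 0.0112 of counts with Vehicle and lay between 0.714% ± 0.0214 (E2) and 0.772% ± 0.0277 (GW3965 plus the second compound) in the treated groups. On the TMM scale, 2 groups stood wholly above Vehicle (6982 to 7371 CPM): GW3965 at 7379 to 7989.6 and GW3965 plus the second compound at 7457 to 8264. The ratio of the mt-encoded to the nuclear sum was 2.23 ± 0.158 (SD, n = 6; 2.00 to 2.38) with Vehicle. It was higher in every library of GW3965 (2.62 to 3.08), ICI (2.55 to 3.01), 27HC (2.41 to 2.84) and E2 (2.395 to 2.66). With GSK2033 (1.69 to 2.00) and GSK2033 plus 27HC (1.60 to 2.06) it was lower, with the highest library of each just inside the Vehicle range. With ICI plus 27HC (2.07 to 2.52) and GW3965 plus the second compound (1.999 to 2.88) it lay on both sides of the Vehicle mean. With the copies added to the mt-encoded sum, the ratio was 2.87 ± 0.198 with Vehicle (2.62 to 3.07) and stood wholly above it with GW3965 (3.24 to 3.93), ICI (3.31 to 3.78) and E2 (3.13 to 3.48), and wholly below it with GSK2033 (2.197 to 2.56), while 27HC (2.94 to 3.48) and GSK2033 plus 27HC (1.94 to 2.63) overlapped it. All 8 treatments were compared with the same 6 Vehicle libraries.

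**Figure D2:**
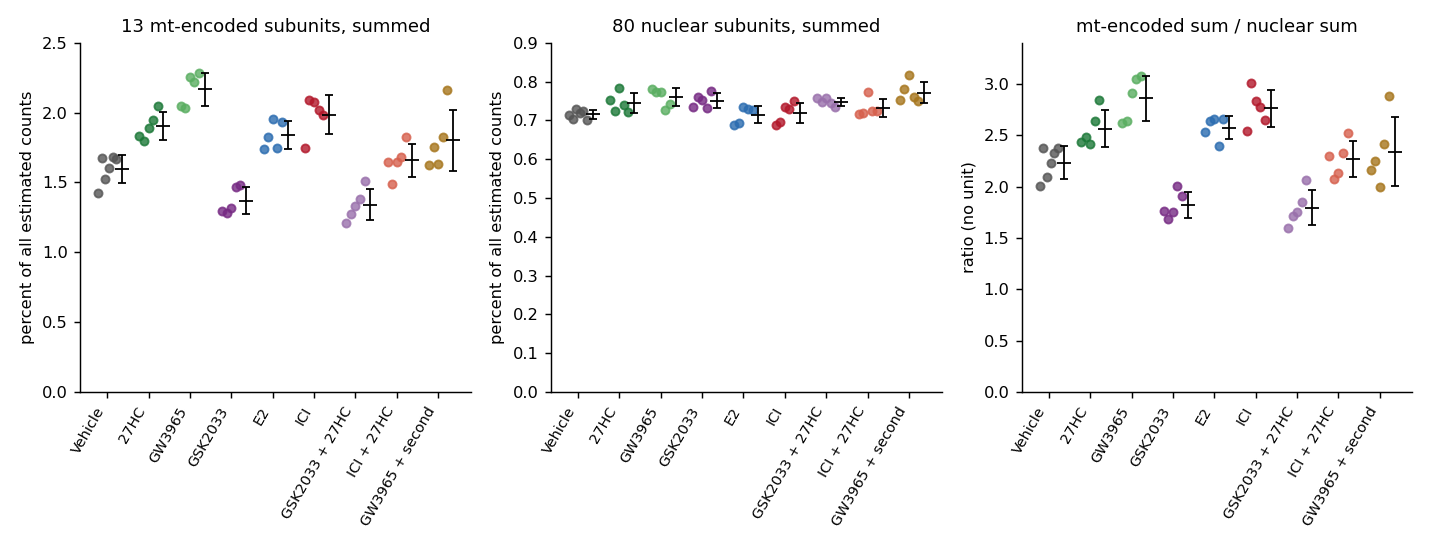
Share of all counts in the 13 mt-encoded subunits (percent), in the 80 nuclear subunits (percent) and the ratio of the sums on the TMM-scaled CPM scale, each point 1 library, with mean and SD beside the points of each of the 9 groups. The mt-encoded share is highest with GW3965 and lowest with GSK2033 plus 27HC, while the nuclear share spans a narrow range.

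With GW3965, the LXR agonist, mt-encoded transcripts rose together. Of the 13, 11 were called higher by edgeR's quasi-likelihood test (Benjamini-Hochberg adjusted p under 0.05 over 13838 genes), where 23.1% of all genes tested were called higher, and the median log2 difference was 0.60, against 0.00436 over all genes. The libraries of 11 genes stood wholly above Vehicle, as did those of 15.2% of all genes. mt-Cytb, the only mt-encoded subunit of complex III and the carrier of its haem b centres (chrM:14145-15288, plus strand), had Vehicle levels with a lowest value of 1012, a median of 1131 and a highest value of 1184 CPM. With GW3965 it stood at 1592, 1712, 1908, 1869 and 1894 CPM, above Vehicle in every library, with a log2 difference (estimate ± standard error) of 0.70 ± 0.064 (SE; adjusted p = 1.15e-12), or 1.62-fold. mt-Nd1, a membrane subunit of complex I near the quinone site (chrM:2751-3707, plus strand), had Vehicle levels of 1201 to 1409.7 (median 1342) CPM and stood at 1842, 1919.8, 2172, 2072 and 2131 with GW3965, again without overlap (0.63 ± 0.064 SE, adjusted p = 1.88e-11). The other complex I genes without a copy rose as well: mt-Nd4l by 0.72 ± 0.092, mt-Nd2 by 0.67, mt-Nd4 by 0.60, mt-Nd5 by 0.50 and mt-Nd6, the one on the other strand (chrM:13552-14070, minus strand), by 0.43. mt-Co1 rose by 0.33, mt-Co3 by 0.42, mt-Atp6 by 0.49 and mt-Atp8 by 0.53. As deposited, mt-Co2 (0.61, adjusted p = 0.0525) and mt-Nd3 (0.66, adjusted p = 0.138) did not pass. With the copies added both did, at 0.49 ± 0.056 (SE; adjusted p = 6.37e-10) and 0.66 ± 0.059 (SE; adjusted p = 3.48e-13), so that 13 of 13 were called. The sum of mt-Co2 and Gm28661 was 3027, 3065, 3484, 3176 and 3329 CPM with GW3965 and 2166 to 2427 with Vehicle.

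With 27HC, 9 of 13 mt-encoded genes rose (background 20.3% higher), with a median of 0.33, and 7 did so without overlap (background 12.4%). mt-Cytb stood at 1379, 1382, 1500.2, 1531 and 1607 CPM, above every Vehicle library (0.42 ± 0.064 SE, adjusted p = 4.98e-07, 1.34-fold). mt-Nd1 stood at 1513, 1511, 1675, 1653 and 1679 CPM, also above all of Vehicle (0.30 ± 0.064 SE, adjusted p = 1.67e-04). Among the complex I genes, mt-Nd4l (0.50 ± 0.093), mt-Nd4 (0.45 ± 0.067), mt-Nd6 (0.36 ± 0.055), mt-Nd5 (0.34) and mt-Nd2 (0.33) rose, as did mt-Co1 (0.21). mt-Atp6 rose by 0.40 (adjusted p = 9.83e-04) as deposited and was at 0.10 (adjusted p = 0.308) with its copy added, so that its call rests on how the counts were divided. mt-Nd3, not called as deposited, passed with its copy at 0.15 (adjusted p = 0.0454), so that 9 were again called.

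The direct comparison of the LXR ligands put 27HC below GW3965. mt-encoded genes were lower with 27HC in 5 of 13 (8 with copies added; background 12.5% lower), with a median of -0.28. The 5 were mt-Nd1 (-0.34, adjusted p = 9.58e-05), mt-Nd2 (-0.34, adjusted p = 5.85e-05), mt-Cytb (-0.28, adjusted p = 0.0011), mt-Co3 (-0.32, adjusted p = 0.00305) and mt-Atp8 (-0.38, adjusted p = 0.00671). Doses are not given, so the order of the ligands holds for these cultures alone.

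GSK2033, the LXR antagonist given alone, went the other way. Of the 13 mt-encoded genes 9 fell (11 with copies added), against a background of 17.9% called lower, with a median of -0.28, and 4 did so without overlap (background 11.2%). mt-Cytb stood at 864, 855, 864, 954 and 888 CPM, below all Vehicle libraries (-0.32 ± 0.064 SE, adjusted p = 7.24e-05). mt-Nd1 stood at 1045, 1012, 1072, 1146 and 1125, likewise without overlap (-0.28 ± 0.064 SE, adjusted p = 5.32e-04). mt-Nd6 fell to 220.0, 213, 216, 225 and 224 CPM from 242 to 293 (median 275) with Vehicle (-0.31 ± 0.055 SE, adjusted p = 1.18e-05), mt-Nd5 changed by -0.36 ± 0.082 (SE; adjusted p = 4.21e-04), mt-Nd4l by -0.34, mt-Nd4 by -0.30, mt-Nd2 by -0.30 and mt-Co1 by -0.25. The ninth, mt-Atp8 (-0.27, adjusted p = 0.0399), was not called without GSK2033 replicate 1, 2 or 3 or Vehicle replicate 2, 4, 5 or 6 (adjusted p of 0.0561 to 0.154). mt-Nd3 did not fall even with its copy added. That sum was 207, 213, 198, 220 and 238 CPM with GSK2033 and 192 to 214 with Vehicle. Set directly against GSK2033, GW3965 was higher in 11 of 13 (13 with copies added; background 23.8% higher), with a median of 0.80, and the groups did not overlap in those 11 (background 17.6%). The largest differences were mt-Nd4l at 1.06 ± 0.098 (SE; adjusted p = 2.16e-12) and mt-Cytb at 1.02 ± 0.067 (SE; adjusted p = 3.68e-17), or 2.03-fold.

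**Figure D3:**
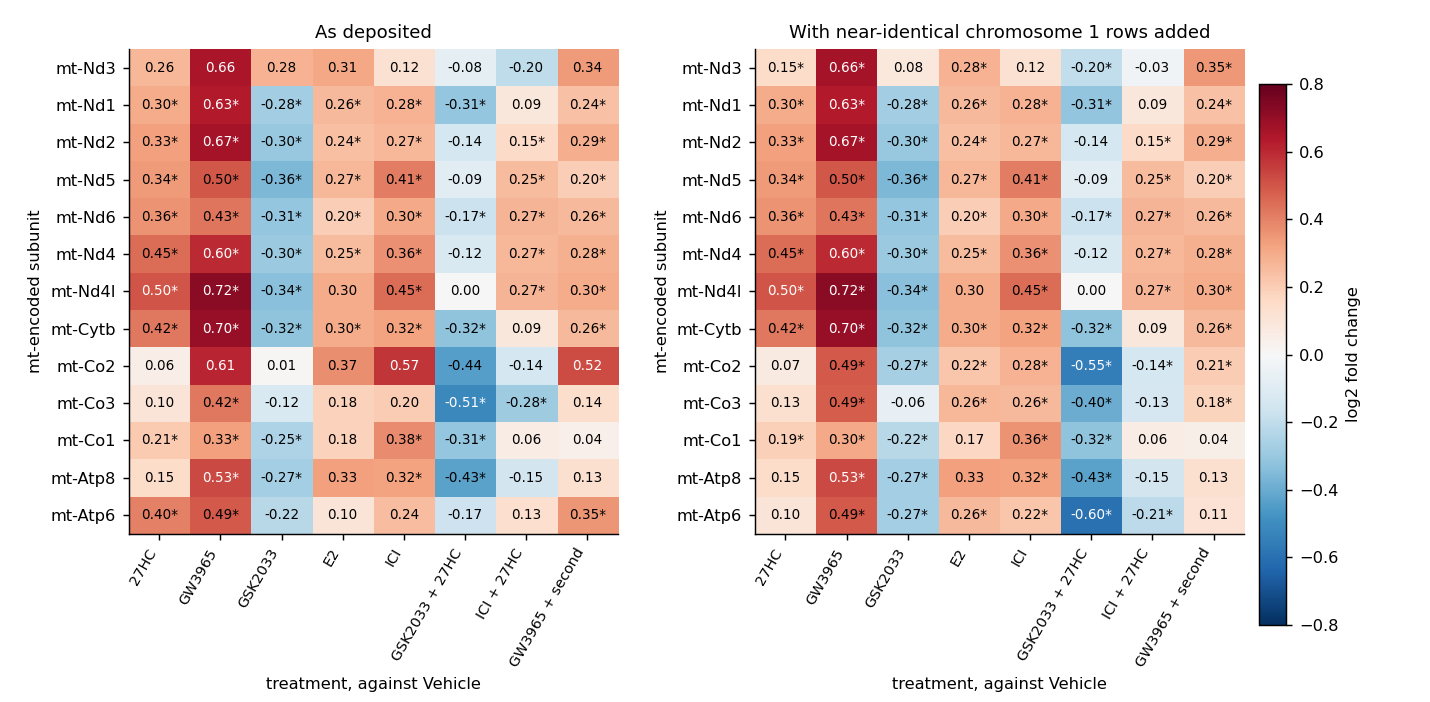
Log2 difference from Vehicle (colour and printed value) of the 13 mt-encoded genes in the 8 treatments, as deposited and with the counts of the chromosome 1 copies added; a star marks an adjusted p under 0.05. GW3965 is higher in every gene and GSK2033 lower in all but mt-Nd3 and mt-Co2 as deposited. With copies added, mt-Nd3 is still not lower with GSK2033.

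Both ER ligands given alone had higher mt-encoded transcripts than Vehicle. With E2, where 2.2% of all genes were called higher and 2.49% lower, 6 of 13 mt-encoded genes rose, with a median of 0.26, and 6 lay wholly above Vehicle (background 1.67%). These sets were not the same. mt-Nd6 was called but overlapped Vehicle, and mt-Nd4l lay wholly above Vehicle but was not called (adjusted p = 0.0539). mt-Cytb stood at 1240.2, 1364, 1441, 1366 and 1384 CPM, above every Vehicle library (0.30 ± 0.064 SE, adjusted p = 0.00158), and mt-Nd1 at 1416, 1529.9, 1716, 1579.9 and 1590.0 (0.26 ± 0.064 SE, adjusted p = 0.00726). mt-Nd2 rose by 0.24 (adjusted p = 0.012). Each of the other 3 calls rested on single libraries. mt-Nd4 (0.25, adjusted p = 0.017) was not called without Vehicle replicate 1 or 3 (adjusted p of 0.0556 to 0.0581), mt-Nd6 (0.20, adjusted p = 0.0247) not without E2 replicate 2, 3 or 5 or Vehicle replicate 3 (adjusted p of 0.0634 to 0.091), and mt-Nd5 (0.27, adjusted p = 0.0439) not without E2 replicate 2, 3, 4 or 5 or Vehicle replicate 1, 3 or 4 (adjusted p of 0.0752 to 0.114). Without Vehicle replicate 3, 3 of 13 were called. With copies added 10 of 13 were called. With ICI, the ER antagonist, 9 of 13 rose (12 with copies added; background 13.9% higher), with a median of 0.32, and 7 without overlap (background 7.67%). mt-Co1 stood at 7618, 8901, 8925, 8496 and 8674 CPM against 5955 to 7105 (median 6666) with Vehicle (0.38 ± 0.068 SE, adjusted p = 2.81e-05), mt-Nd4 at 1089, 1225, 1222, 1130.2 and 1151 against 818 to 971 (median 923) (0.36 ± 0.067 SE, adjusted p = 3.54e-05), and mt-Cytb at 1240.1, 1462, 1435, 1357 and 1421 (0.32 ± 0.064 SE, adjusted p = 1.00e-04), each without overlap. mt-Atp8 (0.32, adjusted p = 0.0176) was not called without Vehicle replicate 1 (adjusted p = 0.0566). ICI replicate 1 had the lowest mt-encoded sum of its group, at 17451 CPM against 20387 to 21262 in the other 4.

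Set against each other, E2 and ICI, agonist and antagonist of the same receptors, differed in 1 of 13 mt-encoded genes. It was mt-Co1, lower with E2 (-0.19, adjusted p = 0.038, background 14.4% lower), and it was not called without E2 replicate 1, 2, 4 or 5 or ICI replicate 2, 3, 4 or 5 (adjusted p of 0.0529 to 0.127). For mt-Cytb the 95% interval of the log2 difference ran from -0.16 to 0.11 and for mt-Nd4 from -0.26 to 0.03. A p that misses the threshold does not show that the ligands act alike.

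Given together with 27HC, GSK2033 left mt-encoded genes at or under the Vehicle level. Against Vehicle 6 of 13 fell (9 with copies added; background 26.4% lower), with a median of -0.17. mt-Cytb stood at 780.3, 814, 884, 924 and 1019 CPM (-0.32 ± 0.064 SE, adjusted p = 3.75e-05), where the highest library reached the lowest Vehicle library, at 1012 to 1184. mt-Co3, a core subunit of complex IV, stood at 1822, 1757, 1775, 2023 and 1853 CPM against 2207 to 2819 (median 2705) with Vehicle, without overlap (-0.51 ± 0.081 SE, adjusted p = 8.28e-07). mt-Atp8 (-0.43 ± 0.106 SE, adjusted p = 7.04e-04), mt-Co1 (-0.31, adjusted p = 2.13e-04) and mt-Nd1 (-0.31, adjusted p = 6.17e-05) also fell. Among the complex I genes, mt-Nd2, mt-Nd4, mt-Nd4l and mt-Nd5 were not called (log2 differences of -0.14, -0.12, 0.00 and -0.09). With copies added, mt-Co2 was at -0.55 ± 0.057 (SE; adjusted p = 2.74e-11) and mt-Atp6 at -0.60 ± 0.077 (SE; adjusted p = 9.79e-09). mt-Nd6 (-0.17, adjusted p = 0.00868) was not called without GSK2033 plus 27HC replicate 1 (adjusted p = 0.0761).

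Set against 27HC alone, the addition of GSK2033 lowered 11 of 13 (13 with copies added; background 21.7% lower), with a median of -0.53, and the groups did not overlap in the 11 (background 15.8%). mt-Cytb differed by -0.74 ± 0.067 (SE; adjusted p = 1.03e-12), mt-Co3 by -0.62 (adjusted p = 5.92e-08), mt-Nd1 by -0.61 (adjusted p = 2.42e-10) and mt-Atp8 by -0.58 (adjusted p = 2.77e-05). Whether the combination differed from the sum of the single effects was tested as an interaction, the log2 difference between the effect of 27HC with GSK2033 and without it. It was below 0 for 5 of 13 (9 with copies added; background 10.3% lower): mt-Co3 -0.50 (adjusted p = 0.00139), mt-Cytb -0.42 (adjusted p = 5.90e-04), mt-Nd1 -0.33 (adjusted p = 0.00679), mt-Nd4 -0.27 (adjusted p = 0.0444) and mt-Nd6 -0.22 (adjusted p = 0.0452). mt-Nd4 was not called without GSK2033 plus 27HC replicate 1, 2, 3 or 4, GSK2033 replicate 1, 4 or 5, 27HC replicate 3, 4 or 5 or Vehicle replicate 1, 3 or 4 (adjusted p of 0.0504 to 0.124), mt-Nd6 not without GSK2033 plus 27HC replicate 1, 2 or 4, GSK2033 replicate 1, 3, 4 or 5, 27HC replicate 3, 4 or 5 or Vehicle replicate 1, 3 or 6 (adjusted p of 0.0533 to 0.139), and the count was 3 without replicate 1, 2 or 4 of GSK2033 plus 27HC, 1, 4 or 5 of GSK2033, 3, 4 or 5 of 27HC, or 1 or 3 of Vehicle.

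ICI plus 27HC gave a mixed pattern. Against Vehicle 5 mt-encoded genes of complex I rose (background 26.6% higher), and 1 fell (background 26.4% lower), with a median of 0.09. With copies added 5 rose and 2 fell: mt-Co2 was at -0.14 ± 0.057 (SE; adjusted p = 0.0318), and mt-Atp6 turned from 0.13 (adjusted p = 0.281) as deposited to -0.21 ± 0.076 (SE; adjusted p = 0.0182). mt-Nd6 stood at 342, 288, 315, 341 and 363 CPM against 242 to 293 (median 275) (0.27 ± 0.055 SE, adjusted p = 3.62e-05), with 1 of its libraries inside the Vehicle range, and mt-Nd4 at 1098, 985, 1018, 1117 and 1211 against 818 to 971 (median 923) (0.27 ± 0.067 SE, adjusted p = 8.99e-04). mt-Nd5 rose by 0.25 (adjusted p = 0.00814). mt-Nd4l (0.27, adjusted p = 0.0132) was not called without ICI plus 27HC replicate 5 (adjusted p = 0.0883), and mt-Nd2 (0.15, adjusted p = 0.037) not without ICI plus 27HC replicate 4 or 5 or Vehicle replicate 1 or 3 (adjusted p of 0.0777 to 0.167). mt-Co3 fell as deposited (-0.28, adjusted p = 0.00289) and was not called with its copy added (-0.13, adjusted p = 0.114). mt-Cytb, at 1165, 1094, 1087, 1214 and 1334 CPM, overlapped Vehicle and was not called (0.09, adjusted p = 0.235).

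The combination of ICI and 27HC was lower than 27HC alone in 7 of 13 (9 with copies added; background 17.4% lower), with a median of -0.21. mt-Cytb differed by -0.33 ± 0.067 (SE; adjusted p = 1.05e-04), mt-Co3 by -0.39 (adjusted p = 2.73e-04) and mt-Nd1 by -0.21 (adjusted p = 0.0125). The count was 3 without replicate 1 or 2 of ICI plus 27HC or 4 or 5 of 27HC, and 4 without replicate 3 of ICI plus 27HC. The interaction of ICI with 27HC was below 0 in 11 of 13 (13 with copies added; background 9.97% lower), with a median of -0.55. It was -0.65 ± 0.092 (SE; adjusted p = 5.14e-07) for mt-Cytb, -0.55 ± 0.098 (SE; adjusted p = 3.42e-05) for mt-Nd4, -0.52 (adjusted p = 8.63e-05) for mt-Co1 and -0.68 (adjusted p = 1.70e-04) for mt-Nd4l. The 2 not called as deposited were mt-Co2 and mt-Nd3, at -0.77 and -0.58, and both passed with copies added, at -0.49 (adjusted p = 9.23e-06) and -0.30 (adjusted p = 0.01).

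GW3965 plus the second compound was higher than Vehicle in 8 of 13 mt-encoded genes (10 with copies added; background 25.2% higher), with a median of 0.26, and lower than GW3965 alone in 10 of 13 (13 with copies added; background 9.56% lower), with a median of -0.32. mt-Cytb stood at 1208, 1279, 1208, 1397 and 1534 CPM, above all Vehicle libraries (0.26 ± 0.064 SE, adjusted p = 6.26e-04) and below all libraries of GW3965 alone (-0.44 ± 0.067 SE, adjusted p = 2.37e-06). For mt-Nd1, at 1393, 1514, 1457, 1558 and 1785 CPM, the lowest library lay inside the Vehicle range and all lay below GW3965 alone (-0.40, adjusted p = 1.45e-05). mt-Nd2 differed from GW3965 alone by -0.38 (adjusted p = 1.87e-05) and mt-Nd4l by -0.42 (adjusted p = 0.00107). mt-Atp6 was called against Vehicle as deposited (0.35, adjusted p = 0.00289) but not with its copy (0.11, adjusted p = 0.222).

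The nuclear subunits changed gene by gene, by small amounts and in both directions. Against Vehicle, 32 of 80 rose and 4 fell with GW3965 (background 23.1% higher and 21.1% lower, median 0.10), and 38 rose and 3 fell with GW3965 plus the second compound (background 25.2% and 24.4%, median 0.12). With 27HC 19 rose and 6 fell (background 20.3% and 20%, median 0.05), a share of rises near the background, and 16 in all were called without 27HC replicate 3. GSK2033 gave 24 rises and 6 falls (background 18.4% and 17.9%, median 0.07), and ICI 11 and 7, shares at or under the background of 13.9% and 12.5% (median 0.03). With GSK2033 plus 27HC, 17 rose and 11 fell (background 24.1% and 26.4%), and with ICI plus 27HC, 14 rose and 14 fell (background 26.6% and 26.4%), shares under the background in both directions. With E2, edgeR called 0 of 80 nuclear subunits. At an unadjusted p under 0.05, 2 were higher and 0 lower, and DESeq2 called 0.

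**Figure D4:**
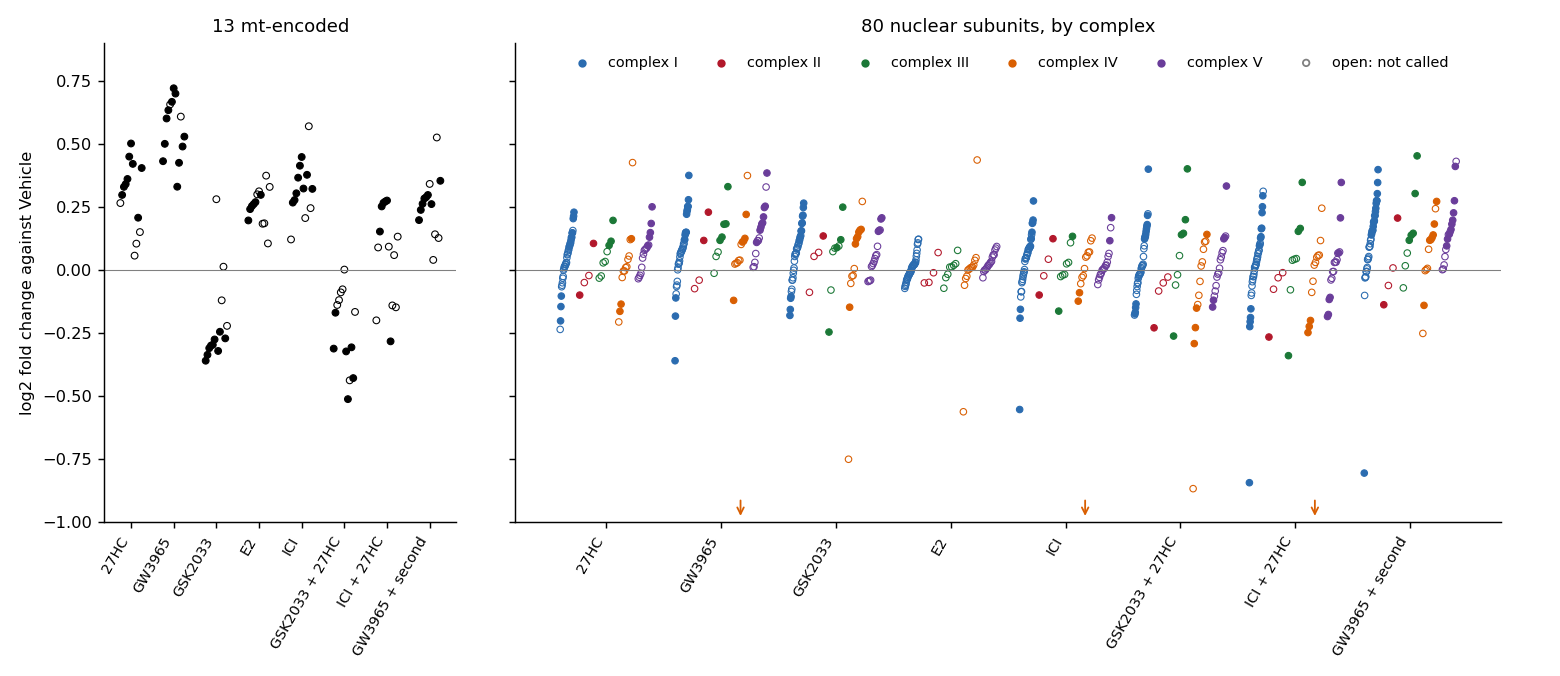
Log2 difference from Vehicle of each of the 93 members by genome and complex in the 8 treatments; filled points are called at an adjusted p under 0.05 and arrows mark 3 values of Cox6c2 below the axis. The mt-encoded points move in 1 direction in most groups, while nuclear points of every complex lie around 0 with calls on both sides.

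In complex I, 12 of 38 nuclear subunits rose with GW3965 (background 23.1% higher) and 18 with GW3965 plus the second compound (25.2%). Ndufb6, an accessory subunit of the membrane arm, had Vehicle levels of 36.1 to 42.7 (median 38.7) CPM and stood at 47.1, 52.8, 52.0, 48.7 and 48.4 CPM with GW3965 plus the second compound, above all of Vehicle (0.35 ± 0.048 SE, adjusted p = 5.09e-08). Its log2 difference was 0.25 with GW3965, 0.22 with GSK2033, 0.19 with ICI, 0.22 with GSK2033 plus 27HC, 0.25 with ICI plus 27HC and 0.13 with 27HC, each called and all against the same Vehicle libraries. The call with 27HC was lost without 27HC replicate 1, 3 or 4 or Vehicle replicate 1, 2 or 6 (adjusted p of 0.0718 to 0.0995). Ndufc1, a small membrane-arm subunit, rose by 0.37 ± 0.064 (SE; adjusted p = 3.66e-06) with GW3965 and by 0.40 ± 0.064 (SE; adjusted p = 8.79e-07) with the second compound added. Ndufs1, the largest iron-sulfur subunit of the arm that takes electrons from NADH, rose with 27HC by 0.23 ± 0.042 (SE; adjusted p = 1.38e-05): 79.0, 74.3, 74.5, 73.9 and 70.8 CPM against 59.7 to 71.7 (median 62.8) with Vehicle, overlapping in the highest Vehicle library. Ndufs5 rose with GSK2033 plus 27HC by 0.40 ± 0.082 (SE; adjusted p = 5.66e-05) and with ICI plus 27HC by 0.29 (adjusted p = 0.00239). With GSK2033 alone its call (0.26, adjusted p = 0.00932) was lost without GSK2033 replicate 2 (adjusted p = 0.0527).

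Falls among the genes counted with complex I were led by Ndufa4l2, an isoform of Ndufa4 known as a target of hypoxia signalling. It is a low gene, at 3.88 to 5.19 (median 4.38) CPM with Vehicle. It stood at 2.45, 2.27, 2.38, 2.35 and 2.89 CPM with ICI plus 27HC (-0.84 ± 0.155 SE, adjusted p = 9.21e-06) and 2.56, 2.39, 2.31, 2.85 and 2.59 with GW3965 plus the second compound (-0.81 ± 0.154 SE, adjusted p = 1.86e-05), without overlap with Vehicle in either. It fell with ICI alone as well (-0.55 ± 0.151 SE, adjusted p = 0.00429), where 1 library of 5 lay inside the Vehicle range. The call with GW3965 (-0.36, adjusted p = 0.0473) was lost without GW3965 replicate 1, 2 or 5 or Vehicle replicate 3, 4 or 6 (adjusted p of 0.0722 to 0.144). Ndufc2 fell with 27HC (-0.20, adjusted p = 8.26e-04), Ndufa1 with GSK2033 (-0.18, adjusted p = 7.60e-04) and Ndufa13 with GSK2033 plus 27HC (-0.17, adjusted p = 4.80e-04). Between E2 and ICI, 5 of 80 nuclear subunits were higher with E2 (background 13.1%) and 10 lower (14.4%), shares under or near those of all genes. Ndufa10 stood at 70.5, 73.6, 79.7, 75.8 and 66.8 CPM with E2 and 86.6, 85.7, 94.0, 85.0 and 86.4 with ICI, without overlap (-0.26 ± 0.053 SE, adjusted p = 1.56e-04), and Ndufa4l2 was higher with E2 by 0.67 ± 0.156 (SE; adjusted p = 7.19e-04). The count of 15 fell to 8 without E2 replicate 2 and to 9 without ICI replicate 3 or 4.

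Complex II has 4 subunits, all nuclear, which oxidise succinate in the TCA cycle. Its membrane anchors moved apart. Sdhc rose with GW3965, to 198, 198, 195, 176 and 197 CPM from 159 to 169 (median 165) with Vehicle, without overlap (0.23 ± 0.040 SE, adjusted p = 5.51e-06), and rose with GW3965 plus the second compound (0.20, adjusted p = 2.74e-05). Sdhd fell with ICI plus 27HC, to 119.7, 121, 124, 123 and 117 CPM from 141 to 148 (median 146), without overlap (-0.27 ± 0.033 SE, adjusted p = 2.02e-09), and with GW3965 plus the second compound (-0.14, adjusted p = 3.73e-04) and 27HC (-0.10, adjusted p = 0.0113). Sdha, the catalytic flavoprotein, fell with GSK2033 plus 27HC, to 194, 192, 194, 194 and 198 CPM from 216 to 239 (median 229) (-0.23 ± 0.043 SE, adjusted p = 1.53e-05). Summed over the 4 genes, complex II stood at 658 to 685 CPM with Vehicle and 619 to 633 with GSK2033 plus 27HC.

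In complex III, Uqcrq rose and Uqcrh fell in some of the same groups. Uqcrq, a small subunit beside cytochrome b, had Vehicle levels with a lowest value of 60.2, a median of 64.1 and a highest value of 70.4 CPM. It stood at 88.7, 85.1, 85.0, 84.9 and 82.2 CPM with GSK2033 plus 27HC (0.40 ± 0.048 SE, adjusted p = 9.20e-10), at 80.4, 82.4, 90.3, 78.8 and 78.7 with ICI plus 27HC (0.35 ± 0.048 SE, adjusted p = 3.03e-08) and at 84.9, 85.4, 95.5, 87.6 and 88.1 with GW3965 plus the second compound (0.45 ± 0.047 SE, adjusted p = 3.62e-11). All 15 libraries of the combinations lay above all 6 Vehicle libraries. With single compounds its level was closer to Vehicle: 0.03 with 27HC and 0.11 with ICI, neither called (the latter called without ICI replicate 1, at 0.0434, or Vehicle replicate 3, at 0.041), against 0.25 (adjusted p = 4.00e-05) with GSK2033 and 0.18 (adjusted p = 0.00178) with GW3965. It was higher in each combination than in the single compound it is set against: GSK2033 plus 27HC against 27HC (0.37, adjusted p = 2.32e-08), ICI plus 27HC against 27HC (0.32, adjusted p = 1.18e-06) and GW3965 with the second compound against GW3965 (0.27, adjusted p = 5.04e-05). The interaction of GSK2033 with 27HC for Uqcrq was 0.12 and was not called (adjusted p = 0.225). The test thus did not separate GSK2033 plus 27HC from the sum of the single effects. The interaction of ICI with 27HC for Uqcrq was 0.21 (adjusted p = 0.0271), lost without ICI plus 27HC replicate 3, ICI replicate 1 or Vehicle replicate 3 (adjusted p of 0.0581 to 0.068).

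Uqcrh, the hinge protein that helps bind cytochrome c1, was lower in 3 groups without overlap with Vehicle. From 81.6 to 87.7 (median 84.2) CPM with Vehicle it stood at 66.2, 71.1, 70.9, 66.9 and 81.1 with GSK2033 (-0.25 ± 0.055 SE, adjusted p = 3.39e-04), 70.7, 72.8, 73.0, 68.1 and 67.3 with GSK2033 plus 27HC (-0.26 ± 0.055 SE, adjusted p = 8.24e-05) and 63.6, 66.3, 72.0, 66.3 and 65.3 with ICI plus 27HC (-0.34 ± 0.056 SE, adjusted p = 1.12e-06). It was called lower in 4 of 8 treatments, the fourth being ICI alone, with a mean of 75.3 CPM against 84.4 with Vehicle. With 27HC (-0.02), GW3965 (0.07) and GW3965 plus the second compound (-0.07) it was not called. Uqcr11 rose with GW3965 (0.33 ± 0.058 SE, adjusted p = 5.88e-06) and 27HC (0.20, adjusted p = 0.00556). Uqcrc2, a core subunit, was called higher in 7 of 8 treatments, all but E2. Among these were GSK2033 plus 27HC (0.20, adjusted p = 3.39e-05) and ICI plus 27HC (0.15, adjusted p = 0.00107).

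**Figure D5:**
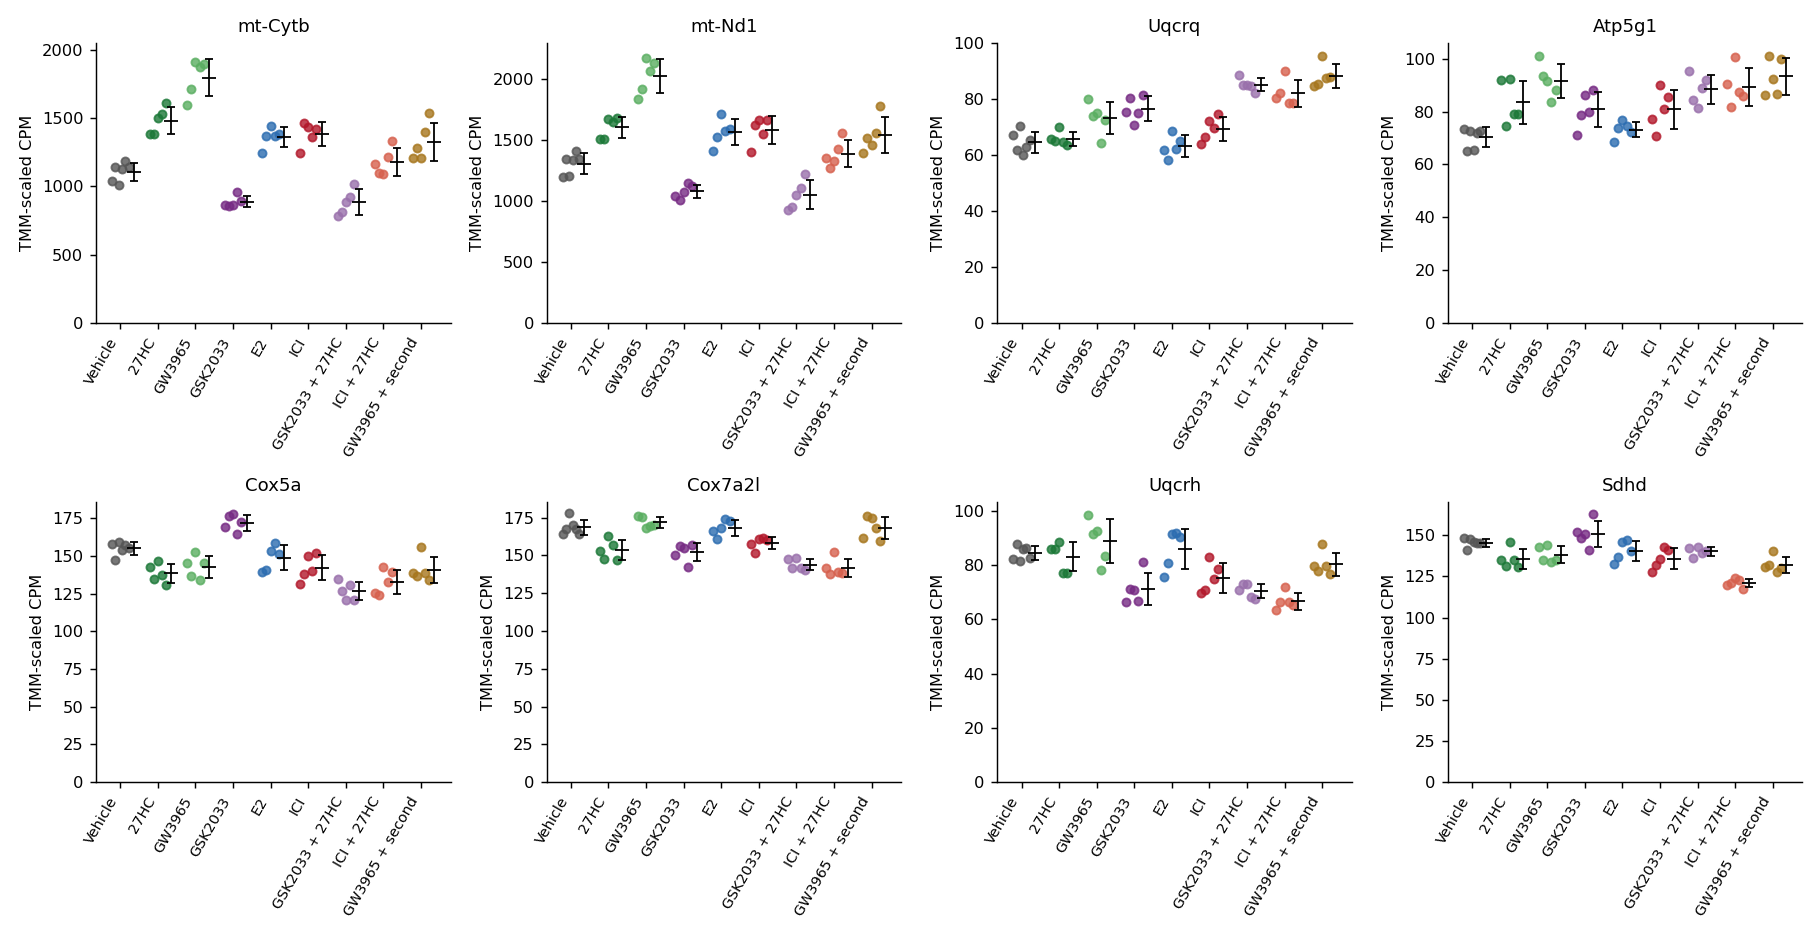
Levels (TMM-scaled CPM) of mt-Cytb, mt-Nd1, Uqcrq, Atp5g1, Cox5a, Cox7a2l, Uqcrh and Sdhd, each point 1 library, with bars for the mean and SD, in the 9 groups. Uqcrq is above Vehicle in all libraries of the combinations and Cox7a2l below it in both combinations with 27HC.

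In complex IV, 1 of 13 nuclear subunits rose (background 24.1% higher) and 3 fell with GSK2033 plus 27HC, and 3 fell with ICI plus 27HC (background 26.4% lower in both), shares under those of all genes. Cox5a, a matrix-side subunit, was lower with 27HC and higher with GSK2033: 148 to 159 (median 156) CPM with Vehicle, 142, 135, 147, 138 and 131 with 27HC (-0.16 ± 0.043 SE, adjusted p = 0.0015) and 169, 177, 178, 165 and 173 with GSK2033 (0.15 ± 0.042 SE, adjusted p = 0.0041), without overlap in either. With both compounds it stood at 135, 127, 121, 131 and 121 (-0.29 ± 0.043 SE, adjusted p = 1.21e-07), with 4 of 5 libraries below all those of 27HC alone, and the interaction was -0.28 (adjusted p = 6.53e-04). Cox7a2l, which links complexes III and IV, was at 164 to 178 (median 167) CPM with Vehicle. It fell with 27HC (-0.14 ± 0.031 SE, adjusted p = 2.99e-04), GSK2033 (-0.15 ± 0.031 SE, adjusted p = 1.13e-04), GSK2033 plus 27HC (-0.23 ± 0.031 SE, adjusted p = 1.73e-08) and ICI plus 27HC, at 142, 138, 152, 139 and 139 CPM (-0.25 ± 0.031 SE, adjusted p = 2.31e-09), without overlap in each. It also fell with ICI alone, at 158, 151, 161, 161 and 160.1 CPM (-0.09 ± 0.031 SE, adjusted p = 0.0226), without overlap, and that call was lost without ICI replicate 2 or Vehicle replicate 3 (adjusted p of 0.0609 to 0.0746). With GW3965 it stood at 176, 176, 168, 169.6 and 170.0 CPM, inside the Vehicle range (0.03, adjusted p = 0.493), and it was lower with 27HC than with GW3965 (-0.16 ± 0.032 SE, adjusted p = 6.90e-05). That comparison of 27HC with GW3965 called 8 of 80 nuclear subunits lower, a share not above the background of 12.5%. The 8 became 5, 4, 4 and 3 without 27HC replicate 1, 2, 4 and 5, and 3, 1, 5 and 5 without GW3965 replicate 1, 2, 3 and 5. Cox6a1 rose with GSK2033 (0.16, adjusted p = 0.00265) and Cox7b with GW3965 (0.22, adjusted p = 8.57e-04), and Cox6b1 fell with ICI plus 27HC (-0.20, adjusted p = 3.63e-04). The low isoform Cox4i2, at 1.04 to 1.94 (median 1.34) CPM with Vehicle, had log2 differences from -0.14 (adjusted p = 0.6) with GSK2033 plus 27HC to 0.44 (adjusted p = 0.247) with E2.

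In ATP synthase, 9 of 17 nuclear genes rose with GW3965 (background 23.1% higher) and 9 with GW3965 plus the second compound (25.2%). The 17 genes summed to 2345 to 2511 CPM with Vehicle, and the sums of 27HC (2518 to 2801), GW3965 (2652 to 2809.8), GSK2033 (2563 to 2685) and GW3965 plus the second compound (2604 to 2882) lay above it in every library. Atp5a1, the alpha subunit of the catalytic head, stood at 309 to 326 CPM with Vehicle, 354, 347, 378, 359 and 365 with 27HC (0.18 ± 0.023 SE, adjusted p = 5.77e-09) and 373, 375, 383, 377 and 382 with GW3965 (0.25 ± 0.023 SE, adjusted p = 7.03e-13), both without overlap. With GSK2033 it was not called (0.01, adjusted p = 0.712), and GW3965 exceeded GSK2033 by 0.24 ± 0.024 (SE; adjusted p = 1.09e-11). With GSK2033 plus 27HC it was below 27HC alone (-0.20 ± 0.024 SE, adjusted p = 3.01e-09), with an interaction of -0.21 ± 0.033 (SE; adjusted p = 4.09e-06). Its partner Atp5b, the beta subunit, rose with GSK2033 too: 834, 841, 844, 835 and 854 CPM against 665 to 761 (median 742) with Vehicle (0.21 ± 0.034 SE, adjusted p = 2.51e-06). Atp5g1, 1 of the genes for the proton-carrying c ring, stood at 65.1 to 73.5 (median 72.3) CPM with Vehicle, 101, 93.6, 91.8, 83.7 and 88.3 with GW3965 (0.38 ± 0.063 SE, adjusted p = 1.59e-06), 86.3, 101, 92.3, 86.9 and 100.0 with the second compound added (0.41 ± 0.062 SE, adjusted p = 3.28e-07) and 92.1, 74.7, 92.2, 79.0 and 79.3 with 27HC (0.25 ± 0.063 SE, adjusted p = 0.00114), all above Vehicle. It also rose with GSK2033 plus 27HC (0.33, adjusted p = 1.57e-05) and ICI plus 27HC (0.35, adjusted p = 7.58e-06), and the smaller change with ICI (0.21, adjusted p = 0.0111) was not called without ICI replicate 3 (adjusted p = 0.0643). Atp5j2, a subunit of the membrane part, fell with ICI plus 27HC (-0.19, adjusted p = 0.00122) and GSK2033 plus 27HC (-0.15, adjusted p = 0.00957), the latter not with scaling by library totals alone (0.0891). Several nuclear members also share sequence with other rows, among them Atp5g2 with Gm10175, Cox7c with Gm12338 and Atp5l with Gm10221, and their levels are uncertain to that extent. Atp5g1 shares sequence with Gm10039, whose mean level was 7.43% of that of Atp5g1. Counts of called nuclear members are given as deposited.

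The combinations and the single compounds were set side by side in the nuclear genes too. GSK2033 plus 27HC had 6 nuclear subunits above 27HC alone (background 21.1%) and 17 below (21.7%). The share above was under that of all genes and the share below was near it. The iron-sulfur subunit Ndufs8 of complex I (-0.27, adjusted p = 1.75e-06), Ndufb8 (-0.23, adjusted p = 5.05e-05) and Sdha (-0.21, adjusted p = 1.80e-04) were in the lower set. The interaction of GSK2033 with 27HC was called below 0 for 15 of 80 (background 10.3%, against 9.34% above 0). Cox7c, 1 of the 15, was no longer called with copies added (adjusted p = 0.0728). Atp5g2 went from 0.04, not called, to -0.27 (adjusted p = 1.12e-04). ICI plus 27HC had 3 above 27HC (background 16.8%) and 17 below (17.4%), and the 20 became 13 without ICI plus 27HC replicate 2 or 5. Uqcrh (-0.32, adjusted p = 1.97e-05) and Ndufs8 (-0.23, adjusted p = 4.23e-05) were among the lower ones. The interaction of ICI with 27HC was called for 5 of 80 nuclear subunits, 1 above 0 (background 7.39%) and 4 below (9.97%), and for 3 without ICI replicate 5. Both shares were under the background. With copies added, Atp5g2 went from 0.11, not called, to -0.21 (adjusted p = 0.00287) in that interaction. GW3965 plus the second compound differed from GW3965 alone in 4 of 80 nuclear subunits, 3 higher (background 7.93%) and 1 lower (9.56%), shares under the background. It differed in 2 without GW3965 plus the second compound replicate 2. The 1 lower was Sdha (-0.18, adjusted p = 0.0032). GW3965 against GSK2033 gave 24 higher (background 23.8%) and 13 lower (22.6%) of 80: Uqcr11 was higher by 0.41 (adjusted p = 2.03e-07) and Ndufs1 by 0.36 (adjusted p = 1.55e-09), and Ndufc2 was lower (-0.34, adjusted p = 3.53e-07).

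Promoters of nuclear chain genes are known to hold sites of ETS factors such as GABP, of NRF1 and of YY1. Ndufb6 and Uqcrh are shown because they lie on the same chromosome and each hold the ETS core. They also moved in opposite directions with GSK2033, with ICI and with both 27HC combinations. The windows of Atp5g1 and Cox7a2l, searched in the same way, hold no match to any of the 3 motifs searched and are not printed. The 250 bases before each start are from RefSeq (GRCm38.p6), both on the minus strand, written 5′ to 3′, with the ETS match (CCGGAAG on the opposite strand) in capitals.
Ndufb6 (chr4:40279422-40279671): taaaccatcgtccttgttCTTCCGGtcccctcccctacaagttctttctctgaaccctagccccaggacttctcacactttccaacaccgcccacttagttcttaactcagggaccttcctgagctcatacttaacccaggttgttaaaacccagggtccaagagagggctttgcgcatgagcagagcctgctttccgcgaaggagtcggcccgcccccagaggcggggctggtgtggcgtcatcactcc
Uqcrh (chr4:116075071-116075320): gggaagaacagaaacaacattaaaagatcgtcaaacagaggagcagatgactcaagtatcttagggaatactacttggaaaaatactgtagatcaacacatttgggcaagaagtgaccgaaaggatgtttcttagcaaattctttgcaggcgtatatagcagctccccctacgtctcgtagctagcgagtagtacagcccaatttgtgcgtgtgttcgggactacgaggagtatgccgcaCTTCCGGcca
Searched on both strands in 32851 RefSeq promoters of that length, CCGGAAG was found in 6.91% the YY1 letters AAGATGGCG in 0.606% and the NRF1 motif in 3.74%. The windows shown hold 1 match each, both of CCGGAAG. Of the 80 nuclear members, 62 (77.5%) matched a promoter, and the share of these with a motif was not computed. The windows printed were picked for holding a match, so they cannot be set against the shares among all promoters. Whether the ETS match bears on the direction in which a gene moved was not tested.

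Genes that build and serve the chain were taken from lists chosen with earlier results known, and sizes are log2 differences from Vehicle ± SE. Of 29 tested genes of protein import and cristae, 24 rose with GSK2033 plus 27HC (median 0.31, background 24.1% higher), 19 with GSK2033 (median 0.20, background 18.4%), 15 with 27HC (0.14, background 20.3%) and 14 with GW3965 (0.18, background 23.1%). Hspa9, the motor of the import machine, rose by 1.05 ± 0.019 with GSK2033 plus 27HC, Grpel1, its cofactor, by 0.77 ± 0.039 and the pore Tomm40 by 0.63 ± 0.036. With GSK2033 alone Hspa9 rose by 0.57 ± 0.019 and with 27HC by 0.28 ± 0.019. Of 17 genes of mt RNA processing and stability, 12 rose with GSK2033 (background 18.4%) and 12 with GSK2033 plus 27HC (24.1%), and 11 rose with 27HC (20.3%) and 11 with GW3965 (23.1%). Lrpprc, which stabilises mt mRNAs, rose by 0.39 ± 0.032 with GSK2033 plus 27HC, 0.23 ± 0.032 with 27HC and 0.31 ± 0.032 with GW3965. Of 16 genes of mt transcription and replication, 4 rose with GSK2033 (background 18.4%), 6 with GSK2033 plus 27HC (24.1%), where 2 fell (26.4%), and 2 with GW3965 (23.1%), counts that lie near the background with GSK2033 and under it with GW3965. The transcription factor Tfb2m was 1 of the 2 (0.38 ± 0.079). Cytochrome c (Cycs) and Cyc1, chain members outside the symbol rule, rose with GSK2033 plus 27HC by 0.39 ± 0.050 and 0.22 ± 0.043. Of 49 proteins of the large mt ribosomal subunit 28 rose (background 18.4%) and 2 fell (17.9%) with GSK2033, and of 44 assembly factors 16 rose (18.4%), Ndufaf4 by 0.44 ± 0.067. Of 18 TCA cycle genes, 12 rose with GW3965 (background 23.1%) and 9 with 27HC (20.3%), Idh3a by 0.39 ± 0.034 and 0.36 ± 0.034.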

How the data were processed

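Bulk RNA of 46 libraries was sequenced from polyadenylated, strand-marked libraries pooled on 3 lanes, per the labels' protocols. The deposited values are estimated counts per gene; kallisto 0.44.0 and the build GRCm38 are named in the submitters' processing notes, and how transcripts were summed to genes is not given in the sources used here. The authors' estimated counts were rounded to whole numbers (a library's total changed by at most 133). The 392 rows without a symbol held 0.455% of counts. They were not removed, and entered library sizes and tests where they passed the filter on low counts.

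Counts were scaled with TMM and tested with edgeR 4.0.16 (R 4.3.3; quasi-likelihood, robust, 9 group means, 37 residual degrees of freedom) on the 13838 genes that passed its expression filter, with Benjamini-Hochberg adjustment over all of them; a gene is called at an adjusted p under 0.05. The biological coefficient of variation was 7.55%. Total counts of 19354093 to 30921038 per library set the precision, and sampling error is largest for the low isoforms. Near-identical rows were found with BLAST 2.17.0 (at least 98% identity over at least 100 bases). Scripts were tested on simulated data.

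The members and the lists of other genes were chosen with earlier results of these data known. Named genes are the 13 mt-encoded ones, the highest and lowest called nuclear member of each complex in each comparison with Vehicle, the highest member per kb, the low isoforms, and for other comparisons the 5 called nuclear members with the smallest p; not all are printed. Ndufb6, Uqcrc2, Atp5a1, Cox5a, Uqcrq and Uqcrh were also followed where the rule did not name them, chosen after their values were seen. From the other lists up to 4 genes with the smallest p were open to naming. Alternatives were DESeq2 1.42.0, other scalings, no filter, only the groups compared, a replicate block and leaving out each library. The replicate numbers did not pair the libraries and entered no model other than that block.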

Additional observations from a re-analysis of the deposited data

Results flagged for a closer look

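Within groups, 198 sets of 5 or 6 libraries were checked for a library far from the others relative to the range (Dixon's criterion), and 13 were found, where chance gives about 1 in 20. ICI replicate 1 stood low in the summed mt-encoded level (17451 CPM, others 20387 to 21262), in mt-Co3 (2348, others 3115 to 3316), in mt-Atp6 (1104, others 1316 to 1373) and in mt-Atp8 (153, others 168 to 173). ICI plus 27HC replicate 3 stood high in the summed nuclear level (7726 CPM, others 7020.1 to 7188), in nuclear complex I (2179, others 1974 to 2023) and in nuclear complex IV (1529, others 1354 to 1393). In the same group, replicate 1 had 73.5 CPM of mt-Nd3 (others 21.1 to 31.3), 1 of the genes whose counts are divided with a copy, and replicate 5 had 154 CPM of mt-Atp8 (others 109 to 116). GW3965 plus the second compound replicate 3 had 665 CPM of nuclear complex III (others 617 to 627) and replicate 5 had 382 CPM of mt-Nd6 (others 304 to 321). GSK2033 replicate 4 had 461 CPM of mt-Nd5 (others 367 to 391), and Vehicle replicate 1 had 2207 CPM of mt-Co3 (others 2621 to 2819).

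The effect of 27HC differed with and without a second ligand for several members, by edgeR's test of the interaction. With GSK2033 the log2 interaction was -0.33 for mt-Nd1, -0.27 for mt-Nd4, -0.22 for mt-Nd6, -0.42 for mt-Cytb and -0.50 for mt-Co3. For nuclear members it was -0.28 for Cox5a, -0.23 for Atp5b, -0.21 for Atp5a1, -0.22 for Uqcrc1, -0.26 for Sdhc and -0.83 for the low isoform Cox4i2. With ICI it was -0.48 for mt-Nd1, -0.44 for mt-Nd2, -0.55 for mt-Nd4, -0.68 for mt-Nd4l, -0.50 for mt-Nd5, -0.39 for mt-Nd6, -0.65 for mt-Cytb, -0.52 for mt-Co1, -0.59 for mt-Co3, -0.52 for mt-Atp6 and -0.62 for mt-Atp8. The nuclear members called there were Ndufb8 at -0.20, Atp5a1 at -0.15, Atp5c1 at -0.15, Sdhc at -0.24 and Uqcrq at 0.21. Both interactions share the 27HC and Vehicle libraries.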

How the results depend on the processing

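Depth and the number of libraries limit the smallest changes, most of all for Cox4i2, Cox6c2 and Ndufa4l2. Of 32 counts of called members (mt-encoded and nuclear in 16 comparisons), all 32 stayed within 1.5 times with DESeq2, with median-of-ratios size factors and with mt-encoded genes left out of the scaling. With the copies added, mt-Co2 with GSK2033 went from 0.01 to -0.27 and mt-Atp6 with ICI plus 27HC from 0.13 to -0.21 on the log2 scale, and the mt-encoded calls went from 6 to 10 for E2, from 5 to 8 for 27HC against GW3965 and from 5 to 9 for the interaction of GSK2033 with 27HC. That last count was 3 with library totals only and 3 with no filter, where the nuclear one was 9 and 9 in place of 15. With no filter on low counts, mt-encoded calls were 3 in place of 7 for ICI plus 27HC against 27HC and 0 in place of 1 for E2 against ICI (in the filtered data edgeR gave 1 at an unadjusted p under 0.05 and DESeq2 called 1), and nuclear calls were 2 in place of 8 for 27HC against GW3965 and 9 in place of 15 for E2 against ICI. Fitting only the groups compared gave 5 nuclear calls for 27HC against GW3965 (library totals only also gave 5), 4 mt-encoded and 8 nuclear calls for E2 against ICI. The causes were not tested.

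Leaving out 1 library at a time gave these ranges, with the reported count in parentheses: mt-encoded calls of 3 to 8 for E2 (6), 0 to 1 for E2 against ICI (1), 3 to 9 for ICI plus 27HC against 27HC (7) and 3 to 7 for the interaction of GSK2033 with 27HC (5); nuclear calls of 16 to 26 for 27HC (25), 1 to 11 for 27HC against GW3965 (8), 8 to 18 for E2 against ICI (15), 2 to 5 for GW3965 with and without the second compound (4), 13 to 24 for ICI plus 27HC against 27HC (20) and 3 to 7 for the interaction of ICI with 27HC (5). The summed mt-encoded level with GW3965 was 0.44 above Vehicle in log2 of the share of counts and 0.56 as a mean over members of log2 CPM. The summed nuclear level was 0.064 for GSK2033 plus 27HC as a share, 0.0085 on the TMM scale and -0.016 as a mean of log2 levels, and for ICI plus 27HC 0.031 and -0.038, so these have no firm sign. The median of all genes moved by at most 0.0559 between scalings.

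Same-numbered libraries of different groups did not deviate together (180 pairs, r from -0.072 to 0.0998, and 12 of 46 libraries correlated best with their own number). With the replicate block, the mt-encoded count for the interaction of GSK2033 with 27HC was 9 in place of 5, and the other 31 counts stayed within 1.5 times.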

Other observations

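Cox6a2, the muscle and heart isoform of a complex IV subunit and left out of the 93 by rule, stood at 0.349 to 0.645 CPM with Vehicle, 2.00 to 2.49 with GSK2033, 1.06 to 1.87 with ICI, 3.46 to 3.90 with GSK2033 plus 27HC, 1.90 to 2.72 with ICI plus 27HC and 2.34 to 3.14 with GW3965 plus the second compound. None of these 5 treated ranges overlaps that of Vehicle, whereas 27HC (0.140 to 0.589), E2 (0.488 to 0.710) and GW3965 (0.518 to 0.954) overlap it.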
